A study of Mus musculus with 18 samples.

Results

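Hox genes encode homeodomain transcription factors and are best known for giving cells their position along the head to tail axis. The 38 Hox genes described here are those of a fixed list of symbols of the HoxA, HoxB, HoxC and HoxD clusters that match a row of the deposited count table, out of 47729 genes. The rule goes by name and not by their values, though it was set with earlier results of these data known. They serve to ask whether colon samples of the 3 groups of mice differed in where along the colon they lay.

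Within each cluster the genes stand in the order of the body regions they pattern, and genes at matching places of different clusters form a paralog group. Low-numbered paralog groups act toward the head, and the highest, paralog group 13, at the hind end. The adult gut keeps much of this pattern, with posterior Hox genes strongest in the distal large intestine, in epithelium and in the muscle and connective tissue around it.

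Colon RNA was sequenced from 9 mice on a C57BL/6 background, with 3 mice in each group. Mice 1 to 3 were WT and labelled as control (naive WT). Mice 4 to 6 were WT and had received AOM, a carcinogen, at 10 mg/kg and then 3 cycles of 2.5% DSS, which injures the colon lining, to produce colitis-associated cancer (WT CAC). Mice 7 to 9 carried the Claudin-2 transgene and had the same treatment (Cldn2TG CAC). The villin promoter restricts that transgene to intestinal epithelium, and no untreated transgenic group was sequenced here. The deposited treatment text is repeated under the control samples, so the naive group rests on the treatment label. The labels give the tissue as colon and name neither the segment, nor whether tumors were included, nor the age of the mice.

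Total counts lay between 14142711 and 22262546 per mouse, of which 16105 to 27708 fell on the 38 Hox genes, and the 3-count floor stood at 0.135 to 0.212 CPM, the unit of all levels here, which is counts scaled to library size. Cldn2 stood at 191 to 258 CPM in naive WT, 122 to 136 CPM in WT CAC and 209 to 249 CPM in Cldn2TG CAC mice, so that the transgenic mice lay above WT CAC mice and within the naive range. Naive mouse 1 stood apart in its sex-linked genes, with 214 CPM of Xist against at most 0.204 CPM in the other 8 mice. Its Y genes stood at 0.497 CPM, against 146 to 190 CPM in the others. By these genes mouse 1 was female and the other 8 mice, with all treated mice among them, were male. The calls against naive mice are therefore also given without mouse 1. The methods of the study describe littermate controls matched for age and sex, which for sex does not hold of these naive mice. The labels give no litter, cage or sex for any of the 9 mice, so p-values measure the spread between these mice.

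The 3 paralog group 13 genes that carry most of the Hox signal differ at 76 of the 180 bases of their homeobox, the stretch that encodes the DNA-binding homeodomain. The stretches below are read from the GENCODE M21 transcripts (GRCm38), 5′ to 3′ in the sense of each gene, and each lies in the last exon of its gene. Capitals mark the bases at which the 3 genes are not all equal, and show how far a read from one of these genes differs from the same stretch of another.
Hoxb13 homeobox, chr11:96196020-96196199, plus strand: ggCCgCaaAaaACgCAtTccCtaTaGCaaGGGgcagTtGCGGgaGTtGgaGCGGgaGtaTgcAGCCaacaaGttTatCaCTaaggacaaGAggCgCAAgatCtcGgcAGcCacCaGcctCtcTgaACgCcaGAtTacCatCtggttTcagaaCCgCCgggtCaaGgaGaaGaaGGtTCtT
Hoxa13 homeobox, chr6:52258928-52259107, minus strand: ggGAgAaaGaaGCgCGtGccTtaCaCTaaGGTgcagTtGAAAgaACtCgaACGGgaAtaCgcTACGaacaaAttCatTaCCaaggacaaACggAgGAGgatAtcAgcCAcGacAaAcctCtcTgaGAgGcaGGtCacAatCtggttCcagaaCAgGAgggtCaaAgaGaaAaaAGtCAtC
Hoxd13 homeobox, chr2:74669930-74670109, plus strand: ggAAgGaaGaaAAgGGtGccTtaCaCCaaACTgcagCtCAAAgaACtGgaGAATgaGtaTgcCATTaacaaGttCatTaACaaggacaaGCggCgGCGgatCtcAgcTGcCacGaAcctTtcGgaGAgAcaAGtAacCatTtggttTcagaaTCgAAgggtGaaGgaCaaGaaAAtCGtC
Along the aligned homeoboxes, Hoxb13 shared 124 bases (68.9%) with Hoxa13 and 121 (67.2%) with Hoxd13, and Hoxa13 shared 133 (73.9%) with Hoxd13. Their longest shared runs were 9, 11 and 11 bases. Over all 38 genes the longest such run was 52 bases, between Hoxa6 and Hoxb4.

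The naive colon was dominated by posterior Hox genes. Paralog groups 9 to 13 made up 93.8% ± 0.775 (SD, n = 3) of summed Hox CPM in naive WT mice, 94.0% ± 0.549 in WT CAC and 94.5% ± 0.629 in Cldn2TG CAC mice. Hoxb13 alone made up 57.0% ± 2.39 of it in naive mice, followed by Hoxd13 with 12.2% ± 0.260 and Hoxa13 with 6.29% ± 0.859. The Hoxb13 share was 47.9% ± 3.39 in WT CAC and 55.4% ± 2.69 in Cldn2TG CAC mice, and the 3 WT CAC mice (44.0% to 49.9%) lay below the other 6. The share of group 13 was 75.4% ± 1.92, 71.6% (70.7% to 73.2%) and 76.8% ± 0.756 in the 3 groups, again with the WT CAC mice lowest. HoxC was close to silent.

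Of the 38 genes, 18 had a mean of at least 1 CPM over the 9 mice and 12 a mean of at least 10 CPM. Those above 1 CPM were 9 of 10 HoxA, 3 of 10 HoxB and 6 of 9 HoxD genes, and none of 9 HoxC genes. There were 5 members, Hoxb1, Hoxc6, Hoxc12, Hoxc13 and Hoxd1, with no count in any mouse, and 11 members had at most 3 counts in every mouse. The highest count of a HoxC gene in a mouse was 11, for Hoxc4 in mouse 1, and no HoxC gene of groups 8 to 13 exceeded 1. Hoxc13 was thus at 0 in naive mice, where its relatives Hoxa13, Hoxb13 and Hoxd13 had the highest CPM per kb of their clusters. In all, 21 members passed the filter on low counts in at least 1 comparison and 19 in every one, and the remainder are described by their counts only. Low counts limit transcripts at this depth and do not show that the genes were off in every cell.

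**Figure D1:**
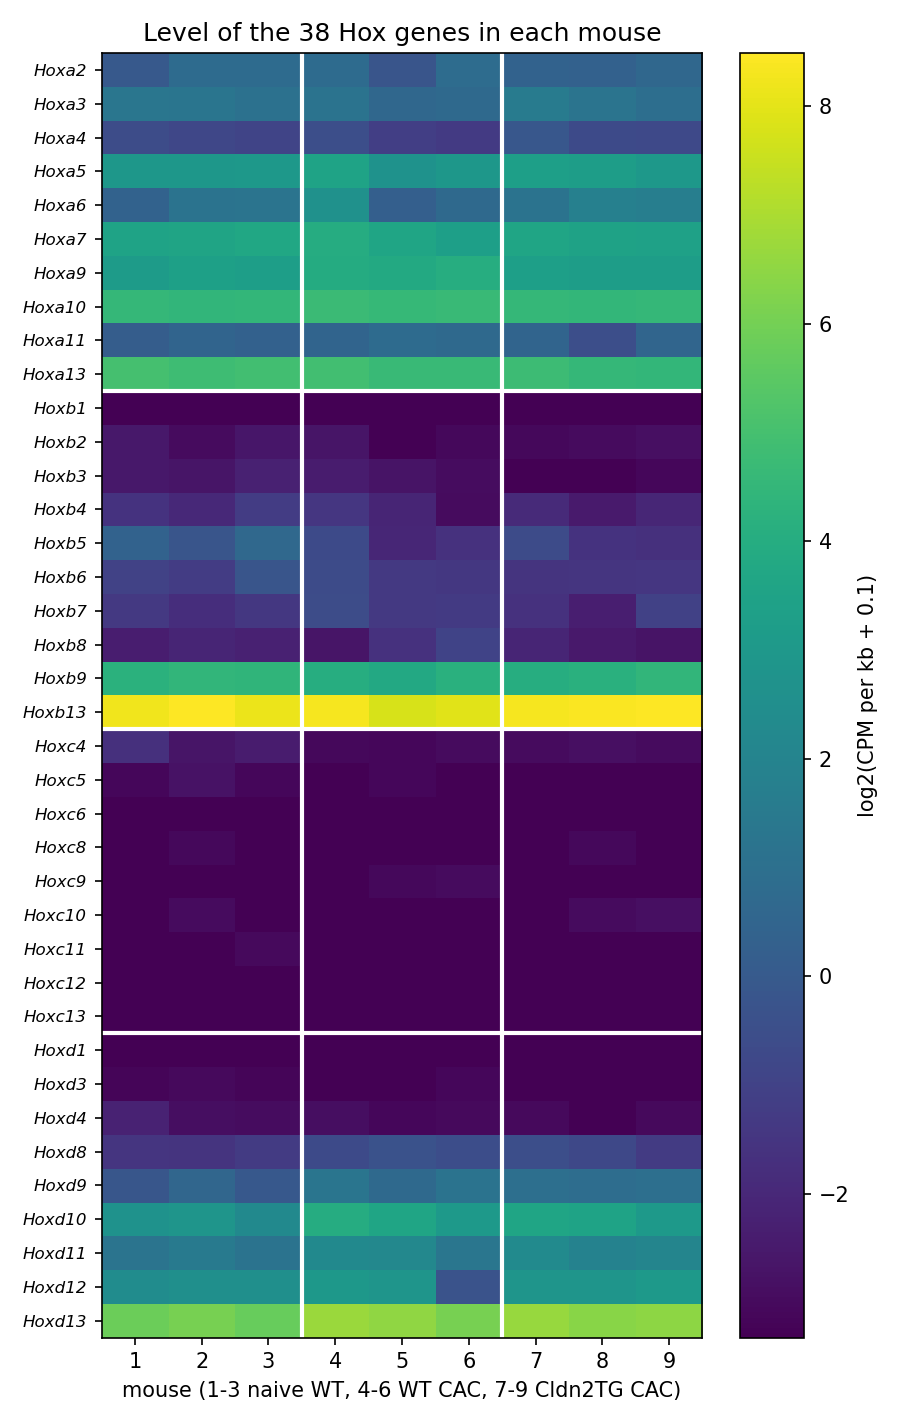
Level of each Hox gene (rows, by cluster) in each mouse (columns) as log2 of CPM per kb of exon plus 0.1, with white lines between clusters and between groups of 3 mice. Hoxb13 is the brightest row in all 9 mice, the HoxC block is dark throughout, and Hoxd12 is dim in mouse 6 only.

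Levels between genes were compared per kb of exon, since longer genes collect more counts. In naive mice Hoxb13 stood at 312 CPM per kb (279 to 359), Hoxd13 at 59.1 (53.6 to 66.2), Hoxa13 at 30.5 (28.5 to 32.5), Hoxa10 at 22.5 (21.6 to 23.4) and Hoxb9 at 20.3 (18.5 to 21.4). The ranges of these 5 genes over the 3 mice did not overlap. Hoxa7, Hoxa9 and Hoxa5 followed at 12.1, 9.70 and 7.63 CPM per kb, again without overlap between neighbours. From rank 9 on, most neighbours, such as Hoxd10 (6.05) and Hoxd12 (5.65), or Hoxd11 (2.39) and Hoxa3 (2.23), overlapped and their order is not settled by 3 mice. Some did not overlap, such as Hoxd12 (5.22 to 5.87) and Hoxd11 (2.17 to 2.75).

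The comparison of both CAC groups asks whether the transgene went with another Hox profile in treated colon. Of the 19 Hox genes tested in Cldn2TG CAC against WT CAC, 1 was called at a Benjamini-Hochberg adjusted p under 0.05 (edgeR quasi-likelihood test over all genes), beside 9.54% of all 14888 genes tested. That gene was Hoxa9, which was lower in Cldn2TG CAC mice, as were 7.35% of all genes, while 0 Hox genes and 2.19% of all genes were higher. DESeq2 and the edgeR fit with all 9 mice likewise called Hoxa9 and no other Hox gene, beside 13.9% and 13.6% of all genes. At an unadjusted p under 0.05 Hoxa9 was again the one Hox gene that passed, beside 23.5% of all genes. The mice of both groups did not overlap for 2 of the 19, Hoxa9 and Hoxa10, both lower in Cldn2TG CAC, beside 28.0% of all genes (15.2% lower and 12.8% higher). The median log2 fold change was 0.02 for the Hox genes and 0.01 for all genes.

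WT CAC against naive WT asks what the treatment went with in WT colon. It called 4 of 21 tested Hox genes, beside 15.0% of all 15437 genes. Hoxa9, Hoxd8 and Hoxd10 rose, beside 8.04% of all genes, and Hoxb5 fell, beside 6.92%. DESeq2 called 5 of the 21, beside 20.9% of all genes, and the edgeR fit with all 9 mice 6, beside 20.2%. Mice did not overlap for 9 of the 21, 7 of them higher and 2 lower in WT CAC, beside 38.0% of all genes (18.9% higher and 19.2% lower). Leaving out any 1 naive mouse left 0 Hox calls by edgeR, and at the same time cut the calls among all genes to 3.96% (without mouse 1), 0.847% (without mouse 2) or 2.55% (without mouse 3). At an unadjusted p under 0.05, with all 6 mice, 8 of the 21 Hox genes passed, beside 32.6% of all genes.

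Cldn2TG CAC against naive WT called 4 of 20 Hox genes, beside 10.0% of all 15013 genes. Hoxd10, Hoxd11 and Hoxd13 rose, beside 3.92% of all genes, and Hoxb5 fell, beside 6.07%. An unadjusted p under 0.05 was found for 9 of the 20, beside 26.0% of all genes. The mice did not overlap for 9 of the 20, 6 higher and 3 lower, beside 31.4% of all genes (15.0% higher and 16.4% lower). Without naive mouse 1 the same 4 genes were called, beside 6.25% of all genes, without mouse 3 only Hoxd13, beside 3.44%, and without mouse 8 only Hoxd11 and Hoxd13, beside 615 genes called in all. DESeq2 called 5, beside 11.9% of all genes, and the edgeR fit with all 9 mice 0, beside 2.83%. This comparison and the previous one share the 3 naive mice, and the first 2 comparisons share the 3 WT CAC mice, so they are not independent of each other. Transgene and treatment cannot be told apart here, since the transgenic mice had no untreated group.

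**Figure D2:**
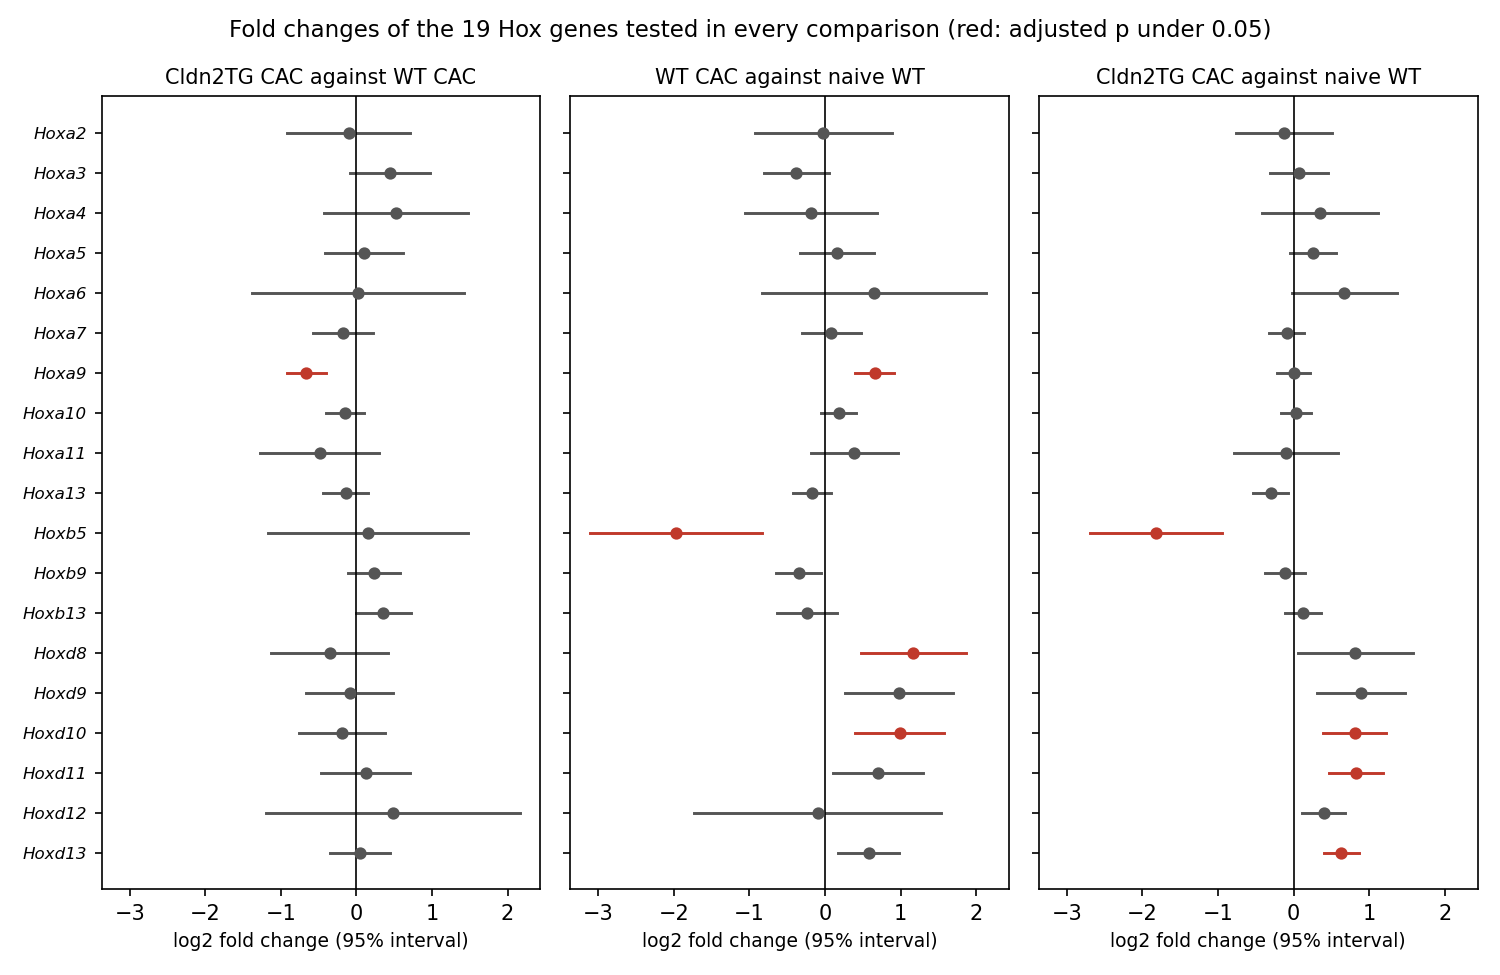
Log2 fold change (points) with its 95% interval (lines) from edgeR for the 19 Hox genes tested in all 3 comparisons, 3 mice against 3 in each panel, with genes called at an adjusted p under 0.05 in red. HoxD points lie right of 0 in both panels against naive WT except Hoxd12 in WT CAC, and Hoxa9 moves in opposite directions in the first and second panel.

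In naive mice Hoxb13, Hoxd13 and Hoxa13 of paralog group 13 had the 3 highest levels in CPM per kb. Hoxb13, a marker of distal colon and rectum, measured 661, 792 and 615 CPM in naive WT, 718, 481 and 546 CPM in WT CAC and 702, 747 and 787 CPM in Cldn2TG CAC mice. All 3 groups overlapped, and WT CAC mice held both the 2 lowest values and a high one. The log2 fold change was 0.36 (95% interval -0.01 to 0.73) for Cldn2TG CAC against WT CAC, with an edgeR adjusted p of 0.228, and an exact permutation p of 0.2, where 3 against 3 mice cannot give less than 0.1. Without WT CAC mouse 4 it was called, at an edgeR adjusted p of 0.0194. Against naive WT, the log2 fold change was -0.24 (adjusted p = 0.368 by edgeR) in WT CAC and 0.12 (adjusted p = 0.519 by edgeR) in Cldn2TG CAC mice.

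Hoxd13, which with Hoxa13 patterns the end of the hindgut, measured 143, 164 and 133 CPM in naive WT, 262, 227 and 166 CPM in WT CAC and 249, 210 and 221 CPM in Cldn2TG CAC mice. Every treated mouse lay above every naive mouse, mouse 6 by a narrow margin. Hoxd13 rose 1.55-fold in Cldn2TG CAC against naive WT, a log2 fold change of 0.63 ± 0.11 (SE, n = 3 per group) with an edgeR adjusted p of 0.00691, and was called there without each mouse in turn, though not with all 9 mice in the fit (adjusted p = 0.0635 by edgeR). In WT CAC the log2 fold change was 0.58 ± 0.17 and its adjusted p of 0.0599 by edgeR missed the threshold; without mouse 6 it was 0.74 with an adjusted p of 0.0271, and it was also called by DESeq2, with all 9 mice in the fit, with no filter and with lane 1 only. Between both CAC groups the log2 difference was 0.05 (95% interval -0.34 to 0.45).

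Hoxa13 measured 80.3, 70.5 and 75.1 CPM in naive WT, 73.4, 64.0 and 63.0 CPM in WT CAC and 68.5, 57.3 and 56.4 CPM in Cldn2TG CAC mice. Its values ran the other way from those of Hoxd13: Cldn2TG CAC mice lay below all naive mice, and WT CAC mice overlapped both groups. The log2 fold change in Cldn2TG CAC against naive WT was -0.30 ± 0.11 with an edgeR adjusted p of 0.102, and it was called without mouse 7 (adjusted p = 0.0383 by edgeR) and with library size only. In WT CAC against naive WT it was -0.17 (95% interval -0.42 to 0.08). The fourth member, Hoxc13, had no count.

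The HoxD cluster was the cluster with the most called genes against naive mice, 2 of 6 tested in WT CAC, beside 15.0% of all genes, and 3 of 6 in Cldn2TG CAC, beside 10.0%. With all 9 mice in the edgeR fit the 3 calls in Cldn2TG CAC were lost, and 2.83% of all genes were called. The mice did not overlap for 4 of the 6 HoxD genes in WT CAC and for all 6 in Cldn2TG CAC, all of them higher than naive, beside the 18.9% and 15.0% of all genes given above. The median log2 fold change of the 6 was 0.84 in WT CAC and 0.82 in Cldn2TG CAC, against 0.02 and 0.00 for all genes, and -0.02 between both CAC groups. HoxD took 15.4% ± 0.286 of summed Hox CPM in naive, 22.7% ± 4.27 in WT CAC and 21.4% ± 1.80 in Cldn2TG CAC mice. Since these are bulk samples, a change in the number of cells of a type and a change in RNA per cell cannot be told apart.

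**Figure D3:**
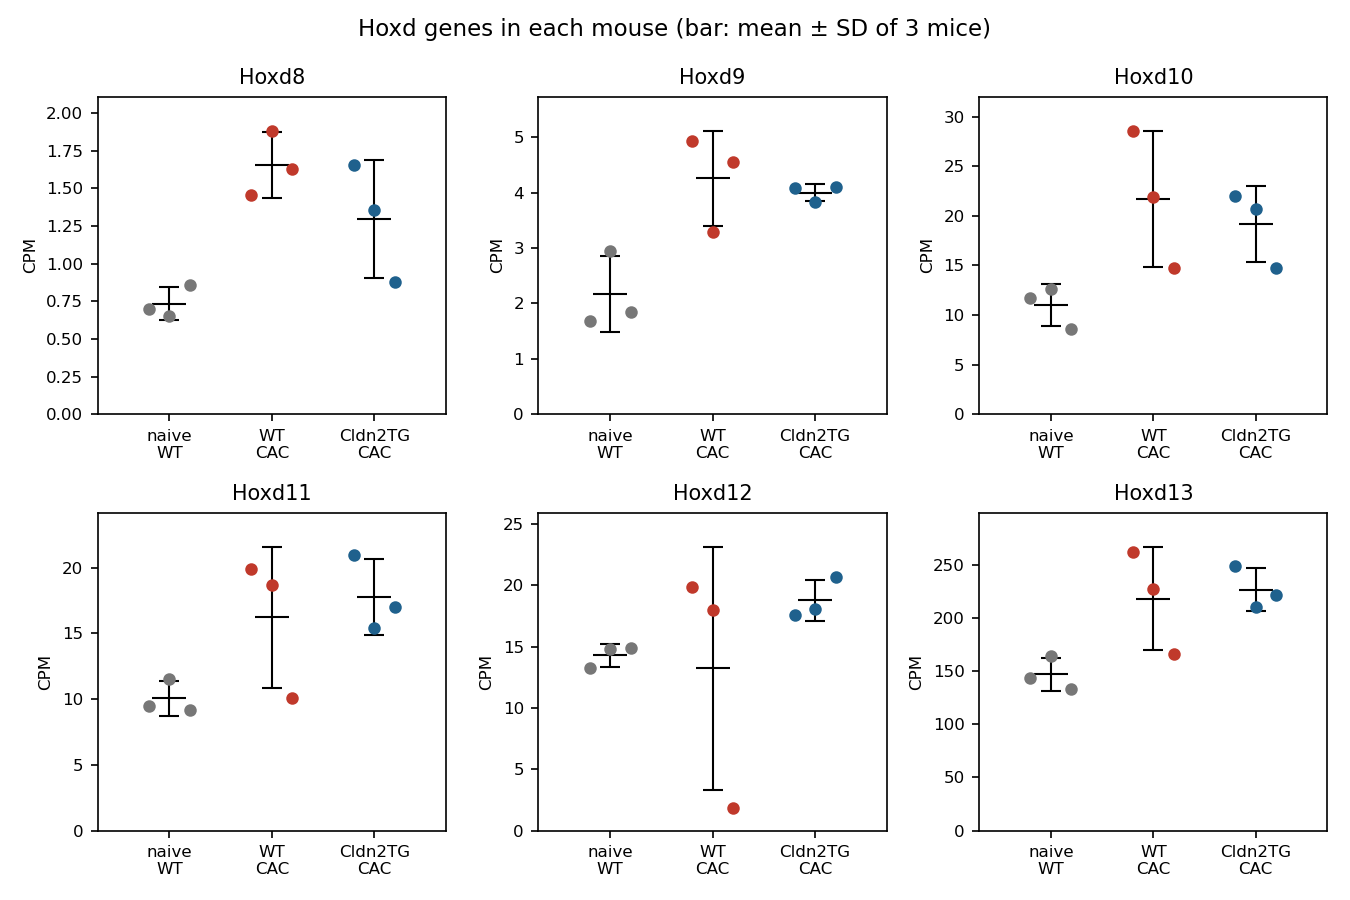
CPM of the 6 tested HoxD genes in each mouse (points) by group, with the mean and SD of 3 mice as bars and axes from 0. Naive mice are the 3 lowest for Hoxd8, Hoxd9, Hoxd10 and Hoxd13; mouse 6 of WT CAC falls among them for Hoxd11 (10.1 CPM) and below them for Hoxd12 (1.83 CPM), and the CAC groups overlap in each panel.

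Hoxd10 measured 11.7, 12.6 and 8.60 CPM in naive WT, 28.5, 21.9 and 14.7 CPM in WT CAC and 22.0, 20.7 and 14.8 CPM in Cldn2TG CAC mice. All treated mice lay above all naive mice, and each treated group had 1 mouse near 15 CPM. Hoxd10 rose in WT CAC, with a log2 fold change of 0.99 ± 0.25 and an edgeR adjusted p of 0.0392, and in Cldn2TG CAC, with 0.81 ± 0.19 and an edgeR adjusted p of 0.0236. It was called without 2 of the 6 mice of the former comparison (mice 4 and 6) and 3 of the 6 of the latter (mice 1, 2 and 9), and lost with each of the others, with adjusted p up to 0.137 and 0.0939 by edgeR. With lane 1 only the former call was lost (adjusted p = 0.0627 by edgeR).

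Hoxd11 measured 9.45, 11.6 and 9.16 CPM in naive WT, 19.9, 18.7 and 10.1 CPM in WT CAC and 21.0, 15.4 and 17.0 CPM in Cldn2TG CAC mice. Mouse 6 fell among the naive mice and the other 5 treated mice lay above them. Hoxd11 rose in Cldn2TG CAC (log2 fold change 0.83 ± 0.16, edgeR adjusted p = 0.0122), though not without mouse 3 (adjusted p = 0.0543 by edgeR). In WT CAC it had a log2 fold change of 0.70 ± 0.26 and an edgeR adjusted p of 0.105, or 0.0254 without mouse 6.

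Hoxd8 and Hoxd9 were low. Hoxd8 measured 0.696, 0.651 and 0.860 CPM in naive WT, 1.45, 1.88 and 1.63 CPM in WT CAC and 1.66, 1.36 and 0.878 CPM in Cldn2TG CAC mice. The naive mice were the 3 lowest, mouse 9 by a small step only. Hoxd8 rose in WT CAC (log2 fold change 1.17 ± 0.30, edgeR adjusted p = 0.0395) and, when each mouse was left out in turn, was called there without mouse 4 only. The call was also lost by DESeq2 (adjusted p = 0.0622), with no filter and with either lane alone. In Cldn2TG CAC its log2 fold change was 0.82 with an edgeR adjusted p of 0.164.

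Hoxd9 measured 1.69, 2.95 and 1.85 CPM in naive WT, 4.93, 3.29 and 4.55 CPM in WT CAC and 4.07, 3.82 and 4.10 CPM in Cldn2TG CAC mice. No treated mouse reached down to the naive range. Its log2 fold change was 0.98 in WT CAC (edgeR adjusted p = 0.0711) and 0.89 in Cldn2TG CAC (edgeR adjusted p = 0.0563), so it passed in neither. DESeq2 called it in both (adjusted p = 0.0399 and 0.0445), the edgeR fit with all 9 mice in WT CAC, and edgeR with no filter or without mouse 2 in Cldn2TG CAC.

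Hoxd12 measured 13.2, 14.8 and 14.9 CPM in naive WT, 19.8, 18.0 and 1.83 CPM in WT CAC and 17.6, 18.1 and 20.7 CPM in Cldn2TG CAC mice. Mouse 6 was far below the other 8 mice. In that mouse Hoxd12 had 27 counts, 19 in lane 1 and 8 in lane 2, between neighbours Hoxd11 with 148 and Hoxd13 with 2440 counts. Hoxd12 was 1.03% of the counts of these 3 neighbours in mouse 6 (exact binomial 95% interval 0.681% to 1.50%, counting error only) and 6.12% to 9.47% in the other 8 mice. Its log2 fold change in WT CAC against naive WT was -0.10 with mouse 6 and 0.41 without it, with an edgeR adjusted p of 0.131 in the latter, and 0.40 in Cldn2TG CAC (edgeR adjusted p = 0.0794).

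RefSeq lists promoters (250 bases before the transcription start to 50 after, GRCm38.p6) for 22 of the 38 genes. Those of Hoxd8, Hoxd10 and Hoxd13 are shown, genes that lie apart from naive in the same direction in both CAC groups. Hoxd9 and Hoxb5 did so too, and their promoters are not shown. Capitals mark AGGTCA, the half-site of retinoid receptors, or its reverse complement.
Hoxd8 promoter, chr2:74704365-74704664, plus strand: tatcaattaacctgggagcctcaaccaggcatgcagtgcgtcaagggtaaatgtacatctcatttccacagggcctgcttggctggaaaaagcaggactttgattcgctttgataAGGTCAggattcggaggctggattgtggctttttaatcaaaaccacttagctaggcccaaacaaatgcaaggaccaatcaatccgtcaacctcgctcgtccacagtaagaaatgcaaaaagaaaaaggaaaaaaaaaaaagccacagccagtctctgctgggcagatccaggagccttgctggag
Hoxd10 promoter, chr2:74691641-74691940, plus strand: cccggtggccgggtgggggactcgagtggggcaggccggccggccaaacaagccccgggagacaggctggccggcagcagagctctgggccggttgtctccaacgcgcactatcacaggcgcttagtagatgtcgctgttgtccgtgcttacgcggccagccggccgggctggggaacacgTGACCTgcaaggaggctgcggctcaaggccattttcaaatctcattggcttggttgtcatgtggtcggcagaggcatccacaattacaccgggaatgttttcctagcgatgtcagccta
Hoxd13 promoter, chr2:74667975-74668274, plus strand: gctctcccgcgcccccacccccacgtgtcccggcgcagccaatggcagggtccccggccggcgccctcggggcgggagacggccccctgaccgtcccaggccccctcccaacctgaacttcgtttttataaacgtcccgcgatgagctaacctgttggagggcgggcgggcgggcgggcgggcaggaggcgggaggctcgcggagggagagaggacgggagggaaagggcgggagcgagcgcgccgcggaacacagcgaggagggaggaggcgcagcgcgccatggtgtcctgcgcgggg
AGGTCA, on either strand, occurred in the listed promoters of 7 of the 22 Hox genes (Hoxa5, Hoxb4, Hoxc4, Hoxd3, Hoxd4, Hoxd8 and Hoxd10), counting a gene once if any of its promoters held it, and in those of 18.1% of all 27025 genes. CAATAAA, a site bound by posterior Hox and Cdx proteins, occurred in 2 of the 22 (Hoxb8 and Hoxd4) and in 5.33% of all genes. Both motifs were absent from these letters of the Hoxd13, Hoxd11 and Hoxa9 promoters. Such matches describe the letters and not binding.

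In the HoxA cluster the change centred on Hoxa9, a posterior gene of paralog group 9. Hoxa9 measured 49.8, 58.5 and 54.2 CPM in naive WT, 84.6, 79.4 and 91.8 CPM in WT CAC and 56.3, 52.6 and 53.0 CPM in Cldn2TG CAC mice. The 3 WT CAC mice lay above all others, and Cldn2TG CAC mice fell within the naive range. Hoxa9 rose in WT CAC against naive WT, with a log2 fold change of 0.66 ± 0.11 and an edgeR adjusted p of 0.0139, and was lower in Cldn2TG CAC than in WT CAC, with -0.66 ± 0.11 and an edgeR adjusted p of 0.0131. In Cldn2TG CAC against naive WT it was 0.00 (95% interval -0.21 to 0.22). Both calls remained without any 1 WT CAC mouse and were lost without any 1 mouse of the other group, with adjusted p up to 0.0619 and 0.0808 by edgeR.

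Hoxa10, its neighbour of group 10, measured 76.5, 70.8 and 73.8 CPM in naive WT, 87.5, 77.5 and 84.6 CPM in WT CAC and 75.8, 72.7 and 75.8 CPM in Cldn2TG CAC mice. WT CAC mice were again the 3 highest, by a small margin. The log2 fold changes were 0.18 against naive WT (edgeR adjusted p = 0.247) and -0.16 for Cldn2TG CAC against WT CAC (edgeR adjusted p = 0.475), and neither was called. Of the 10 HoxA genes tested, Hoxa9 was the called one in either comparison with WT CAC mice, and 0 of 10 were called by edgeR in Cldn2TG CAC against naive WT, beside 10.0% of all genes, where 1 had an unadjusted p under 0.05, beside 26.0%.

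**Figure D4:**
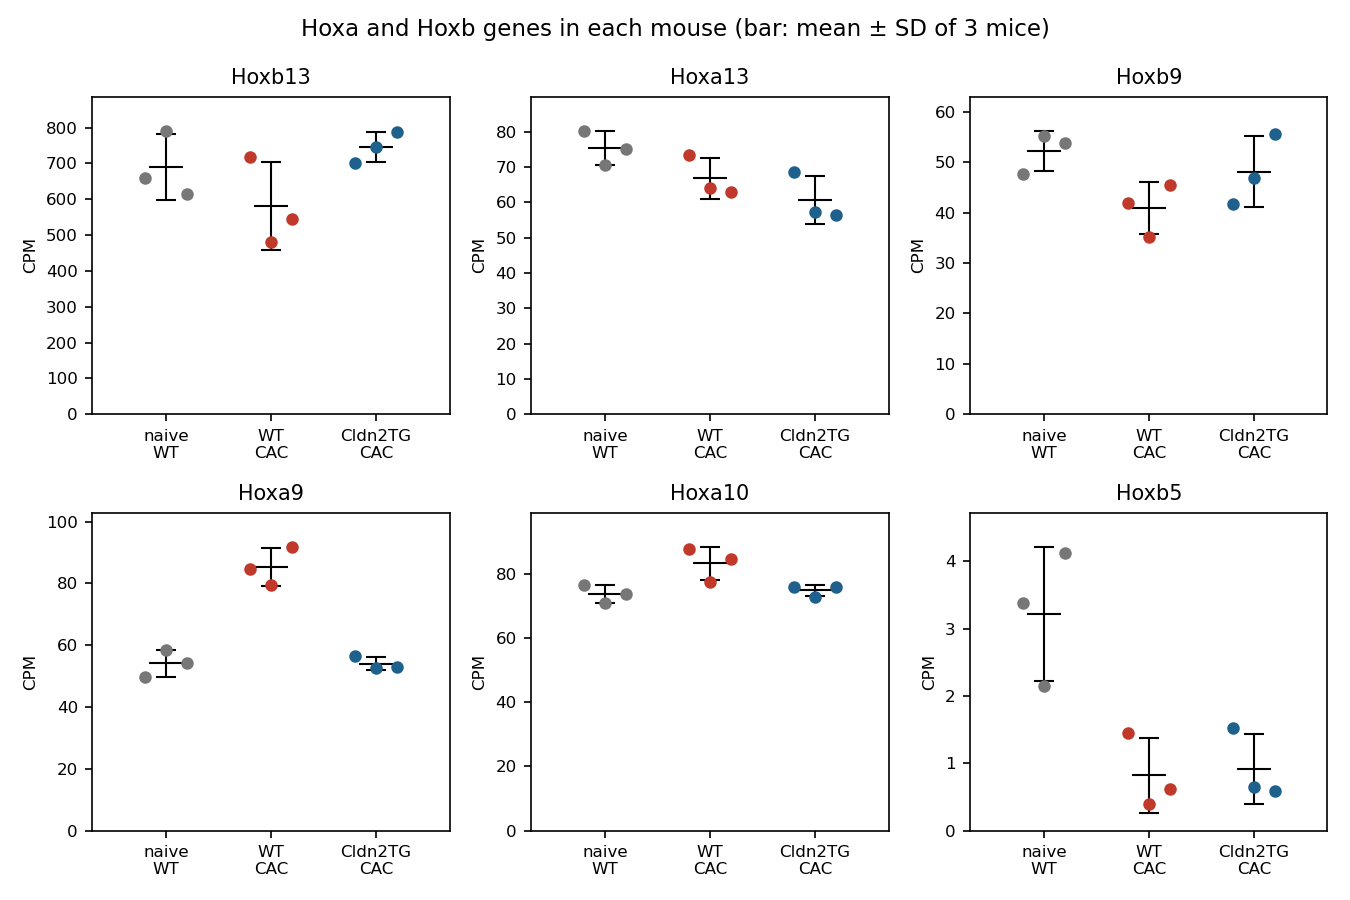
CPM of Hoxb13, Hoxa13, Hoxb9, Hoxa9, Hoxa10 and Hoxb5 in each mouse (points) by group, with the mean and SD of 3 mice as bars and axes from 0. The 3 WT CAC mice stand above all others for Hoxa9 (79.4 to 91.8 CPM), and the naive mice above all others for Hoxb5 (2.15 to 4.13 CPM).

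Hoxb5, an anterior gene with a known part in the development of the enteric nervous system, was the called gene of HoxB. It measured 3.38, 2.15 and 4.13 CPM in naive WT, 1.45, 0.395 and 0.611 CPM in WT CAC and 1.52, 0.654 and 0.586 CPM in Cldn2TG CAC mice. Every naive mouse lay above every treated mouse. Hoxb5 fell by 1.97 on the log2 scale in WT CAC (SE 0.49, edgeR adjusted p = 0.0363) and by 1.82 in Cldn2TG CAC (SE 0.40, edgeR adjusted p = 0.0187). It was called without 1 of the 6 mice of the former (mouse 4) and 3 of the 6 of the latter (mice 1, 2 and 7). With lane 2 only both calls were lost, and with all 9 mice in the fit the latter was. Lane 2 held 4023472, 5757674 and 4811928 counts in mice 6, 7 and 9, against 9620787 to 11191378 in the others. Over both lanes Hoxb5 had 8 to 28 counts in a treated mouse.

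Of the list of 8 enteric neuron and glia markers, 7 were tested against naive WT. In Cldn2TG CAC all 7 fell, beside 6.07% of all genes, among them Ret (log2 fold change -1.77) and Sox10 (-1.85), and in WT CAC 2 of 7 fell, beside 6.92% of all genes, among them Uchl1 (-1.18). The summed list ranged from 30.8 to 49.3 CPM in naive WT, 26.2 to 42.2 CPM in WT CAC and 11.2 to 16.4 CPM in Cldn2TG CAC mice, so that WT CAC overlapped naive mice. Ret, a receptor of enteric neurons, measured 10.4, 7.31 and 12.0 CPM in naive WT and 7.12, 30.9 and 29.5 CPM in WT CAC mice, where mouse 4 lay below the naive mice and mice 5 and 6 above them. Without Ret, a choice made after its values were seen, the sum was 38.9, 23.5 and 34.3 CPM in naive WT, 19.1, 8.07 and 12.6 CPM in WT CAC and 13.3, 8.20 and 9.08 CPM in Cldn2TG CAC mice, so that both CAC groups lay below naive mice and overlapped each other. The median log2 fold change of the 7 tested genes was -1.18 in WT CAC, where DESeq2 called 4, and -1.77 in Cldn2TG CAC, where it called 6, against 0.02 and 0.00 for all genes. DESeq2 called 20.9% and 11.9% of all genes there. The part of this list in the Hoxb5 values was not tested. Chat, a defining neuron marker, reached at most 0.688 CPM in a mouse.

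Hoxb9 measured 47.6, 55.2 and 53.9 CPM in naive WT, 41.9, 35.2 and 45.5 CPM in WT CAC and 41.7, 46.8 and 55.6 CPM in Cldn2TG CAC mice. WT CAC mice lay below naive mice, and Cldn2TG CAC mice spanned both. Its log2 fold change was -0.35 in WT CAC against naive WT with an edgeR adjusted p of 0.102. Of the HoxA genes of groups 2 to 7, none was called in any comparison with all 6 mice, and Hoxa3 was called in WT CAC against naive WT without mouse 4 only. Their log2 fold changes ran from -0.38 (Hoxa3, WT CAC against naive WT) to 0.67 (Hoxa6, Cldn2TG CAC against naive WT).

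Position along the colon was read from a balance, the mean log2(CPM + 0.5) of the 11 genes of groups 9 to 13 minus that of the 7 genes of groups 1 to 8 with a mean of at least 1 CPM. It was 2.49, 2.58 and 2.23 in naive WT, 2.58, 3.16 and 2.60 in WT CAC and 2.66, 2.65 and 2.90 in Cldn2TG CAC mice. Both treated groups overlapped each other, and their lowest mice sat just above the highest naive mouse. The differences were -0.05 between Cldn2TG CAC and WT CAC, 0.35 between WT CAC and naive WT and 0.30 between Cldn2TG CAC and naive WT, where the SD between mice was 0.25, 0.26 and 0.16. As a log2 ratio of summed CPM, which Hoxb13 dominates, the differences were 0.15 between Cldn2TG CAC and WT CAC, 0.03 between WT CAC and naive WT and 0.18 between Cldn2TG CAC and naive WT, so that the first changed sign. The 11 posterior genes did not move together. In Cldn2TG CAC against naive WT the log2 fold changes of Hoxd9 to Hoxd13 were 0.40 to 0.89. Those of the HoxA and HoxB genes of the 11 were -0.30 (Hoxa13) to 0.12 (Hoxb13). In WT CAC against naive WT, Hoxd9, Hoxd10, Hoxd11 and Hoxd13 had 0.58 to 0.99 and Hoxd12 -0.10. There Hoxa9 (0.66), Hoxa11 (0.39) and Hoxa10 (0.18) were positive, and Hoxa13 (-0.17), Hoxb13 (-0.24) and Hoxb9 (-0.35) negative. No sample of a known segment is among the 9, so a balance cannot be turned into a distance along the colon.

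Marker genes of colon segments did not move as a block. Of the proximal markers, Hao2 measured 669, 695 and 631 CPM in naive WT, 188, 73.5 and 64.4 CPM in WT CAC and 375, 337 and 356 CPM in Cldn2TG CAC mice. The 3 groups were fully separate, and Hao2 was lower in both CAC groups than in naive mice (log2 fold change -2.61 and -0.89). Mptx1, another proximal marker, fell in WT CAC with a log2 fold change of -3.29, while Cyp2c55 (0.14) and Ang4 (-0.37) were not called. In Cldn2TG CAC mice Mptx1 measured 67.9, 1348 and 1681 CPM, against 2496, 2144 and 1835 CPM in naive WT. Cyp2c55 went the other way, at 836, 750 and 1674 CPM against 521, 382 and 301 CPM. Neither was called by edgeR in Cldn2TG CAC against naive WT. Between the CAC groups Hao2 was higher in Cldn2TG CAC (1.72, edgeR adjusted p = 0.0404). Among distal markers Insl5, made by enteroendocrine cells, fell in WT CAC against naive WT (-1.43) and was higher in Cldn2TG CAC than in WT CAC (1.35, edgeR adjusted p = 0.0368), while Scnn1b, a subunit of the sodium channel of distal colonocytes, rose in WT CAC against naive WT (1.34). Atp12a, the strongest distal marker, was not called in any comparison.

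The summed proximal list spanned 2788 to 3705 CPM in naive WT, 437 to 1255 CPM in WT CAC and 1296 to 3719 CPM in Cldn2TG CAC mice. The Cldn2TG CAC sums hold opposite moves, since Mptx1 lay below and Cyp2c55 above all naive mice. The summed distal list spanned 648 to 1223, 537 to 679 and 479 to 1042 CPM, so that groups overlapped. Atp12a made up most of the distal sum. Scnn1g, another subunit of the channel of Scnn1b, measured 8.71, 6.66 and 3.53 CPM in naive WT, 9.82, 39.0 and 21.7 CPM in WT CAC and 4.97, 3.52 and 12.6 CPM in Cldn2TG CAC mice. All WT CAC mice lay above naive mice, though the log2 fold change of 1.92 missed the threshold (edgeR adjusted p = 0.0560). Small intestinal markers Apoa1, Apoa4, Lct and Gata4 reached at most 0.395 CPM in a mouse, while Slc10a2, the bile acid transporter of the ileum, rose in WT CAC (log2 fold change 3.22) and in Cldn2TG CAC (2.33) against naive WT. Fabp6, the ileal bile acid binding protein, measured 4.48, 4.11 and 7.65 CPM in naive WT, 6.75, 4.43 and 4.01 CPM in WT CAC and 7.73, 19.4 and 11.6 CPM in Cldn2TG CAC mice, and was higher in Cldn2TG CAC than in WT CAC (1.35, edgeR adjusted p = 0.0493). Mttp lay between 2.29 and 5.96 CPM and was not called in any comparison. Squamous markers Krt5 and Trp63 reached at most 0.156 CPM, while Krt13 (log2 fold change 4.75) and Krt14 (3.90) rose in WT CAC against naive WT, as did Krt4 (4.84), together 3 of 4 tested, beside 8.04% of all genes. Krt13 (-4.74) and Krt14 (-2.91) were lower in Cldn2TG CAC than in WT CAC. Sbsn was higher in Cldn2TG CAC than in naive WT (1.62, edgeR adjusted p = 0.0465). The summed squamous list separated the groups, at 3.03 to 3.36 CPM in naive WT, 21.9 to 64.7 CPM in WT CAC and 5.93 to 6.49 CPM in Cldn2TG CAC mice, and its part in the Hox values was not tested.

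**Figure D5:**
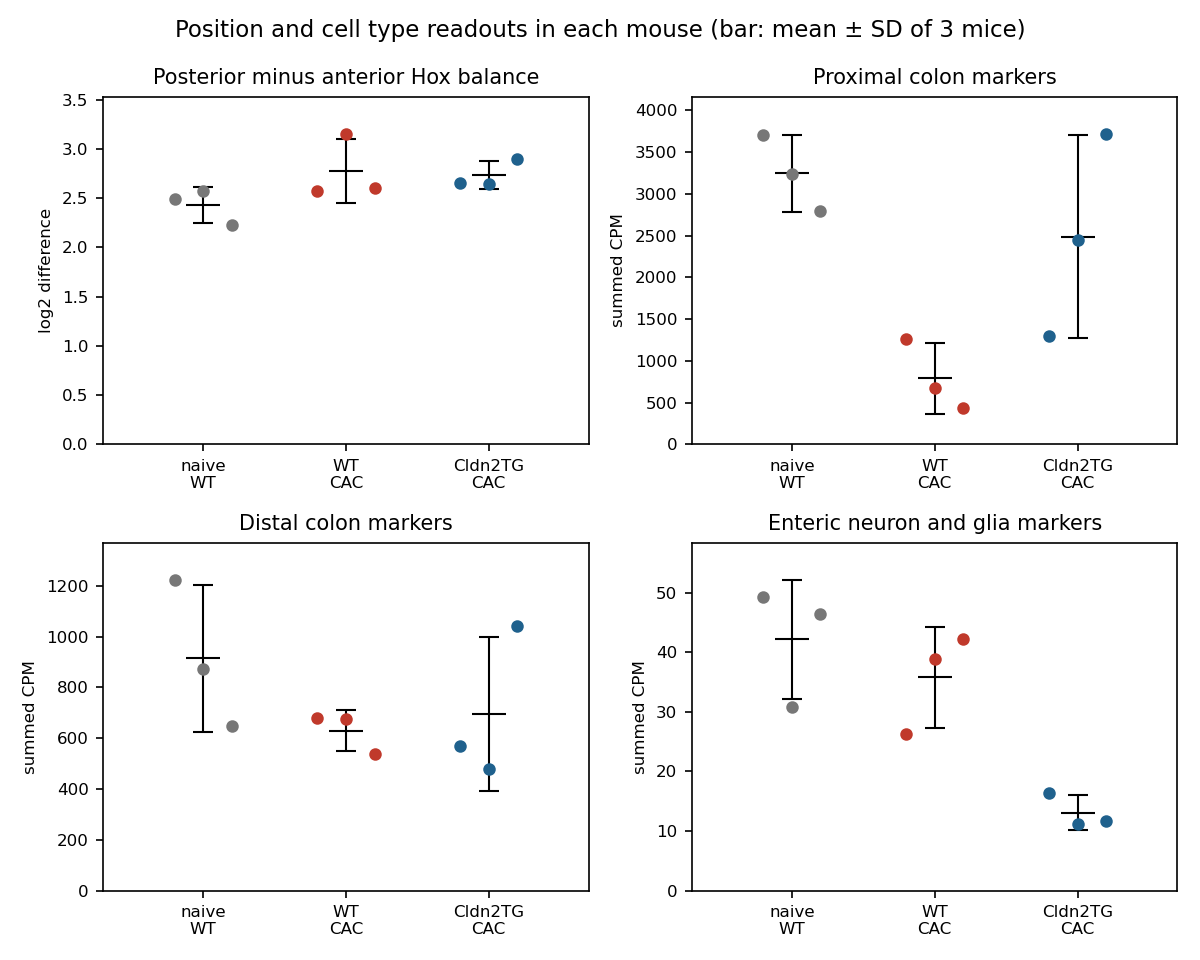
Posterior minus anterior Hox balance (log2 difference) and summed CPM of proximal colon, distal colon and enteric neuron and glia markers in each mouse (points) by group, with mean and SD of 3 mice as bars and axes from 0. Balances lie between 2.23 and 3.16 in all mice, and proximal markers are lowest in WT CAC. Summed neuron and glia markers, with Ret in the sum, are lowest in Cldn2TG CAC mice, which overlap WT CAC mice without Ret.

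The makeup of the samples differed in other ways beside these values. Summed smooth muscle markers spanned 2074 to 4161 CPM in naive WT, 1090 to 3083 CPM in WT CAC and 999 to 1540 CPM in Cldn2TG CAC mice, and edgeR called 3 of 8 lower in Cldn2TG CAC against naive WT, beside 6.07% of all genes, where DESeq2 called 8, beside 11.9% of all genes. Summed fibroblast markers separated the groups, at 326 to 457 CPM in naive WT, 493 to 1174 CPM in WT CAC and 201 to 284 CPM in Cldn2TG CAC mice. Of the 8, Col1a2 and Pdgfrb fell in Cldn2TG CAC against naive WT, beside 6.07% of all genes, and Col3a1 and Col1a2, which encode fibrillar collagens, were lower in Cldn2TG CAC than in WT CAC, beside 7.35%. In WT CAC against naive WT edgeR called 0 of the 8, with 4 at an unadjusted p under 0.05, beside 32.6% of all genes, and DESeq2 called 3, beside 20.9%. Summed endothelial markers spanned 33.4 to 42.3, 35.4 to 44.5 and 20.4 to 23.96 CPM, and 3 of 6 (Kdr, Cdh5 and Pecam1) fell in Cldn2TG CAC against naive WT, beside 6.07% of all genes. Summed leukocyte markers spanned 43.0 to 95.6, 125 to 225 and 22.9 to 52.4 CPM. In WT CAC against naive WT 4 of 8 were called higher, beside 8.04% of all genes. Without naive mouse 1 only Lyz2 stayed called there, beside 3.96%. In Cldn2TG CAC 4 of 7 were called lower than in WT CAC, beside 7.35% of all genes. Against naive WT 0 of 7 were called, beside 10.0%. Summed epithelial markers spanned 19173 to 21762, 19055 to 24630 and 20437 to 24751 CPM, and 1 of 8 (Krt8) was called, in Cldn2TG CAC against naive WT, beside 10.0% of all genes. The part of these cell types in the HoxD and Hoxa9 values was not tested.

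The regulators and partners of Hox genes were taken from gene lists. Cdx1 and Cdx2, intestinal homeodomain factors that act upstream of posterior Hox genes, were not called by edgeR in any comparison. Cdx1 measured 563, 593 and 538 CPM in naive WT, 516, 429 and 416 CPM in WT CAC and 570, 644 and 769 CPM in Cldn2TG CAC mice. WT CAC mice were the 3 lowest, and the edgeR adjusted p was 0.122 against naive WT and 0.0641 between the CAC groups, where DESeq2 called it.

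Among the 9 cofactors of the TALE homeobox family, which bind DNA together with Hox proteins, Meis3 was lower in WT CAC than in naive WT (log2 fold change -1.06) and higher in Cldn2TG CAC than in WT CAC (1.33). Meis3 measured 7.61, 6.41 and 7.61 CPM in naive WT, 3.84, 3.51 and 2.99 CPM in WT CAC and 8.63, 8.90 and 8.56 CPM in Cldn2TG CAC mice. The 3 groups did not overlap, though Meis3 was not called in Cldn2TG CAC against naive WT (0.28, edgeR adjusted p = 0.313). Meis1 (-1.24) and Meis2 (-1.12) fell in Cldn2TG CAC against naive WT.

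Of the noncoding RNAs of the clusters, Hottip, transcribed beside Hoxa13, measured 37.4, 33.1 and 31.3 CPM in naive WT, 17.8, 12.3 and 13.6 CPM in WT CAC and 25.5, 31.7 and 26.1 CPM in Cldn2TG CAC mice. WT CAC mice were the 3 lowest without overlap. Hottip fell in WT CAC against naive WT (log2 fold change -1.22, edgeR adjusted p = 0.00796) and was higher in Cldn2TG CAC than in WT CAC (0.94, edgeR adjusted p = 0.0159), while Hoxa13 beside it was not called in either. Hoxa11os rose (0.61) and Hoxb5os fell (-1.79) in Cldn2TG CAC against naive WT. Hoxb5os covers 3.59% of the exonic bases of Hoxb5 and Hoxa11os 35.0% of those of Hoxa11 on the other strand, and the strand setting of the counting is not given in the sources used here.

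Polycomb and Trithorax genes, which keep Hox clusters shut or open, numbered 25, all tested. In WT CAC 1 of 25 rose (Bmi1, log2 fold change 0.80), beside 8.04% of all genes. Cbx6 alone was lower in Cldn2TG CAC than in WT CAC (-1.55), beside 7.35% of all genes, and than in naive WT (-0.68), beside 6.07%. With 1 called gene of 25 in each comparison, a difference from these shares was not tested. The median of the list lay between 0.02 and 0.08 in the 3 comparisons. Ezh2, Eed and Suz12, the core of Polycomb complex PRC2, were not called.

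Without naive mouse 1, edgeR called 11 of the 22 called genes of these lists in WT CAC against naive WT, beside 3.96% of all genes, and 17 of the 28 in Cldn2TG CAC against naive WT, beside 6.25%, and all of them kept their direction. Those lost included Meis3, Bmi1, Insl5, Krt4 and Uchl1 in the former and Meis1, Hoxb5os, Sox10, Col1a2, Kdr, Krt8 and Sbsn in the latter. Hao2, Mptx1, Scnn1b, Krt13, Krt14, Slc10a2 and Hottip were still called in the former, and Hao2, Ret, Meis2, Cbx6, Slc10a2 and Hoxa11os in the latter.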

How the data were processed

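The authors sequenced colon RNA from 9 mice, each library in 2 lanes. According to the paper reads were mapped with TopHat2, and according to the submitters' processing notes with HISAT2, to GRCm38, and counted per gene with featureCounts of Subread. Versions, strand and the treatment of multi-mapping reads are not given in the sources used here. The deposited values are these raw whole-number counts for 47729 genes, without normalization, and 0 columns of per-sample values were left unused. Lanes were added up per mouse.

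A comparison was a robust quasi-likelihood fit and two-sided test in edgeR 4.0.16 (R 4.3.3) of the whole table, using only its own 6 mice, TMM factors, and genes kept by filterByExpr at a count of 10 and a total of 15. Benjamini-Hochberg adjustment ran over every gene tested, and called means an adjusted p under 0.05. The biological coefficient of variation was 0.149 for Cldn2TG CAC against naive WT and 0.217 and 0.218 where WT CAC mice took part. For CPM, TMM factors were set on the 9 mice at once. For one gene at a time a permutation test, exact and two-sided, was added. A fit was tested on simulated data with known changes. Gene positions, exons and transcripts came from GENCODE M21 (GRCm38), promoters from RefSeq (GRCm38.p6).

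Given in full were Hox genes called in any comparison, those of paralog group 13, the 5 with the highest naive level per kb, and those of at least 1 CPM whose 3 mice of one group lay outside the range of the other 6. Of the gene lists, called members and the 2 strongest were the candidates to be named, and other members named were chosen after their values were seen. Some members of these lists are not reported here by name. The members and lists were chosen with earlier results of these data known. The alternatives were DESeq2 1.42.0, other normalizations and filters, all 9 mice in 1 fit, each lane alone, a threshold of 0.01 and leaving out each mouse.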

Additional observations from a re-analysis of the deposited data

How the results depend on the processing

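Each result was recomputed under other settings. The number of Hox genes called fell from 1 to 0 in Cldn2TG CAC against WT CAC and from 4 to 0 in WT CAC against naive WT at an edgeR adjusted p under 0.01, and from 4 to 1 (Hoxd13) in Cldn2TG CAC against naive WT, beside 1.50%, 1.44% and 2.25% of all genes. With lane 2 only it was 2 in WT CAC against naive WT, beside 12.8% of all genes. With all 9 mice in the fit it was 0 in Cldn2TG CAC against naive WT, where edgeR then called 2.83% of all genes in place of 10.0%, while 6 Hox genes were called in WT CAC against naive WT, beside 20.2% of all genes in place of 15.0%. Leaving out each mouse in turn gave 0 to 2, 0 to 5 and 1 to 5 called Hox genes in the 3 comparisons, beside 0.382% to 19.2%, 0.847% to 25.7% and 3.44% to 8.95% of all genes. DESeq2 called 1, 5 and 5, beside 13.9%, 20.9% and 11.9% of all genes. The Hox balance difference of WT CAC against naive WT, 0.35, was 0.0305 as a log2 ratio of summed CPM, and 0.16 to 0.45 without each mouse; for Cldn2TG CAC against WT CAC it was -0.15 to 0.14 without each mouse and -0.04 to 0.15 under the other settings, and for Cldn2TG CAC against naive WT 0.20 to 0.37 and 0.18 to 0.38. No fold change of a named Hox gene changed sign in a called result, and 38 values of single named genes lost their call while 14 gained one. Scaling to library size only moved the median of all genes by -0.11 in Cldn2TG CAC against naive WT and also called Hoxa13. Without Ret, left out after its values were seen, the mean sum of enteric neuron and glia markers in WT CAC was 13.3 CPM in place of 35.8. The cause of these differences was not tested. No paired analysis was possible because the mice carry the numbers 1 to 9 and the groups share none. With 3 mice a group, an exact permutation test of 1 gene cannot go below 0.1, and members under about 1 CPM rest on few counts.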

Other observations

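Retinoic acid, which switches Hox genes on in the embryo, is made from retinol by dehydrogenases. Aldh1a3, which makes retinoic acid, measured 7.51, 8.01 and 7.31 CPM in naive WT, 52.2, 185 and 152 CPM in WT CAC and 4.97, 6.99 and 7.10 CPM in Cldn2TG CAC mice. All 3 WT CAC mice lay far above the others, and the log2 fold change was 4.10 against naive WT and -4.36 for Cldn2TG CAC against WT CAC (edgeR adjusted p = 0.00763 and 0.00820). Rdh10 (2.19) and Stra6 (4.53), which handle retinol, also rose in WT CAC against naive WT, and both were lower in Cldn2TG CAC than in WT CAC. Of the 18 listed genes, 13 were tested in WT CAC against naive WT, where 4 rose, beside 8.04% of all genes, and Dhrs3 fell (-0.54), beside 6.92%. In Cldn2TG CAC against naive WT 13 were tested, where Rdh10 rose (0.54), beside 3.92% of all genes, and 3 fell, beside 6.07%. These were Aldh1a2 (-2.63), another enzyme that makes retinoic acid, Cyp26b1 (-2.78), which breaks it down, and Dhrs3 (-0.58). Without naive mouse 1 the calls of Stra6 and Dhrs3 in WT CAC and of Aldh1a2 in Cldn2TG CAC were lost. The receptor genes Rara, Rarb, Rarg, Rxra and Rxrb were not called in any comparison. Of these, Rarb had a log2 fold change of 1.05 in WT CAC against naive WT (edgeR adjusted p = 0.240). For Cldn2TG CAC against WT CAC it was -2.01 (edgeR adjusted p = 0.0731). Rarb measured 1.77, 1.93 and 7.33 CPM in WT CAC mice. The link of this list to the Hox values was not tested.

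Of 63 other annotated genes in or within 50000 bases of the clusters, 17 had a mean of at least 1 CPM. Evx1os, antisense to the Evx1 homeobox gene beyond Hoxa13, measured 0.547, 0.200 and 0.0430 CPM in naive WT, 3.53, 6.58 and 22.3 CPM in WT CAC and 0.276, 0.352 and 0.512 CPM in Cldn2TG CAC mice. WT CAC mice lay above all others, with a log2 fold change of 5.37 against naive WT (edgeR adjusted p = 0.0194, or 0.0511 without naive mouse 1) and -4.81 for Cldn2TG CAC against WT CAC (edgeR adjusted p = 0.0156). Evx2, beside Hoxd13 at the end of the HoxD cluster, had log2 fold changes of 0.24 in WT CAC and -0.04 in Cldn2TG CAC against naive WT and was not called, in contrast to Hoxd13 in Cldn2TG CAC mice. Evx1os was chosen after its values were seen.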
